A study of Mus musculus with 6 samples.

Results

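The epidermal growth factor (EGF) family in the inflamed mouse colon was described from 10 genes of the deposited expression table, chosen by their symbols, out of 18477 listed genes. They are 7 ligands (Egf, Tgfa, Areg, Ereg, Hbegf, Btc and Epgn) and 3 receptors (Egfr, Erbb2 and Erbb3). Whole colon RNA came from male C57BL/6 mice, 6 to 8 weeks old at purchase, which all drank 2% dextran sulfate sodium (DSS), a polymer that injures the colon epithelium, for 7 days. The DSS group (n = 3) received phosphate-buffered saline by gavage daily for 14 days, and the DSS+BV group (n = 3) received *B. vulgatus*, a gut commensal bacterium, in the same way. By the paper's methods, DSS was given during the last 7 of these 14 days, so gavage began before it. Each mouse gave 1 library, no mouse without DSS is among the libraries analysed here, and the stretch of colon used for RNA is not given in the sources used here.

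EGF family ligands are made as membrane-anchored precursors, are cut free by proteases and bind receptors of the ErbB family at the surface of the same or a neighbouring cell. Binding pairs the receptors, and the kinase inside the cell starts the RAS-ERK and PI3K-AKT cascades. Egfr (ErbB1) binds Egf, Tgfa, Areg and Epgn, whereas Hbegf, Btc and Ereg also bind Erbb4. Erbb2 binds no known ligand and acts as a partner, and Erbb3, with little kinase activity of its own, binds neuregulins and relays signals to PI3K. In the gut these signals are known for driving crypt cell division and the closing of wounds after injury, and ERK signalling itself induces several of the ligands.

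Library totals lay between 15293276 and 17254343 expected counts. All 15 genes of a colon epithelium marker list were detected and passed the filter on low counts. Of 9 listed markers of squamous epithelium, which would mark tissue from the anorectal border, Sfn, which colon epithelium also expresses, was abundant and the other 8 had at most 22 counts in any library. Among those 8, Krt13 passed the filter, Krt14 had 5 to 10 counts and Krt5 0 to 2, and the highest counts were those of Krt13 in DSS+BV 1 and of Dsg3 in DSS 1. CPM, the counts-per-million scale with TMM-adjusted library totals, is the unit of levels here unless a value is said to be per kilobase. Of the cell type lists, epithelium had a median log2 fold change of 0.35 (DSS+BV against DSS) and summed to 14382 to 17003 CPM in the DSS and 21504 to 33179 CPM in the DSS+BV libraries. Much of the gap between these sums in DSS+BV 2 and 3 came from 1 gene, Car1. It stood at 825, 1041 and 939 CPM across DSS mice 1 to 3, against 924, 10453 and 8702 CPM across DSS+BV mice 1 to 3. The lists of macrophage and monocyte, fibroblast, endothelial and neutrophil genes had medians of -0.88, -0.90, -0.65 and -3.00. Of the 10 neutrophil genes, 6 were called lower, against 0.0892% of all tested genes, and 0 were called in the other 3 of these lists. The lists were chosen with earlier results of these data known. Those of smooth muscle, mast cell, T and innate lymphoid, and B and plasma cell genes had medians of -0.14, -0.46, -0.18 and -0.74, with 0 called. In whole tissue, fewer cells of a type and less RNA per cell cannot be told apart.

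Of the 7 ligand genes, 4 are neighbours on chromosome 5. Epgn, Ereg, Areg and Btc lie in this order within 375.5 kb (chr5:91027517-91402994, GRCm38.p6, RefSeq). Tgfa lies at chr6:86195038-86275744, Egf at chr3:129677574-129755322, Erbb3 at chr10:128567523-128589635, Egfr at chr11:16752203-16913907 and Erbb2 at chr11:98412484-98437716. RefSeq promoter windows of the same build were at hand for 7 of the 10 genes. The 150 bases before the start site are shown for Areg and Epgn, members of the same cluster whose differences between the groups had opposite signs. Both are on the plus strand. Capitals mark TGACGTCA, the cAMP response element (the same on both strands), TATAAA, the TATA box, and GGGCGG, the GC box bound by SP1, each searched on both strands.

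Areg (chr5:91139449-91139598): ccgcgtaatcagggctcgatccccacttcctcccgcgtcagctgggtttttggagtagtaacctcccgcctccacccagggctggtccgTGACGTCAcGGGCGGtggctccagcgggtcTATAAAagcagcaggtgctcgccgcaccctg
Epgn (chr5:91027367-91027516): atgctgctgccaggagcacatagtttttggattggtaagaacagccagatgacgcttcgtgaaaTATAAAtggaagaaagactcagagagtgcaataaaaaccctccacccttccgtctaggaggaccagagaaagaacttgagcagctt

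The Areg sequence holds the cAMP response element at bases -61 to -54 from the start site, a GC box next to it and a TATA box at bases -31 to -26. In the 250 bases before the start, TGACGTCA was found in 1.55% of 32817 promoter windows, and Areg was the 1 member with it. TATAAA stood in 12.4% of all windows and in those of Areg and Epgn, and GGGCGG in 32.7% and in those of Areg, Egfr and Tgfa. The Tgfa window belongs to a start site inside the gene, so its GC boxes lie within the span of Tgfa given above. The AP-1 site TGAGTCA, at 4.46% of all windows, was in none of the 8 windows of the 7 members. A match is a description of the letters and not evidence of binding. The Areg stretch was 64.7% and the Epgn stretch 45.3% G or C.

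All 10 members passed the filter on low counts, and 0 of the 10 passed the test between the groups. Genes were called at an adjusted p under 0.05 with a log2 fold change beyond 1 in either direction in edgeR's quasi-likelihood test, by which 13 of 14579 tested genes (0.0892%) were called, all lower in DSS+BV. DESeq2 also called 0 of the 10 members, against 2.01% of the 16155 genes to which it gave an adjusted p (1.73% lower and 0.279% higher in DSS+BV). At an unadjusted p under 0.05 in the edgeR test, 1 member passed, Tgfa, against 12.5% of all tested genes. Tgfa was also the 1 member whose groups did not overlap, against 17.6% of all tested genes in either direction and 6.37% in the higher direction, so 1 of 10 is near the background. The median log2 fold change was 0.52 over the ligands and -0.22 over the receptors, against -0.01 over all tested genes, with 4 of 7 ligands and 1 of 3 receptors above 0.

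**Figure D1:**
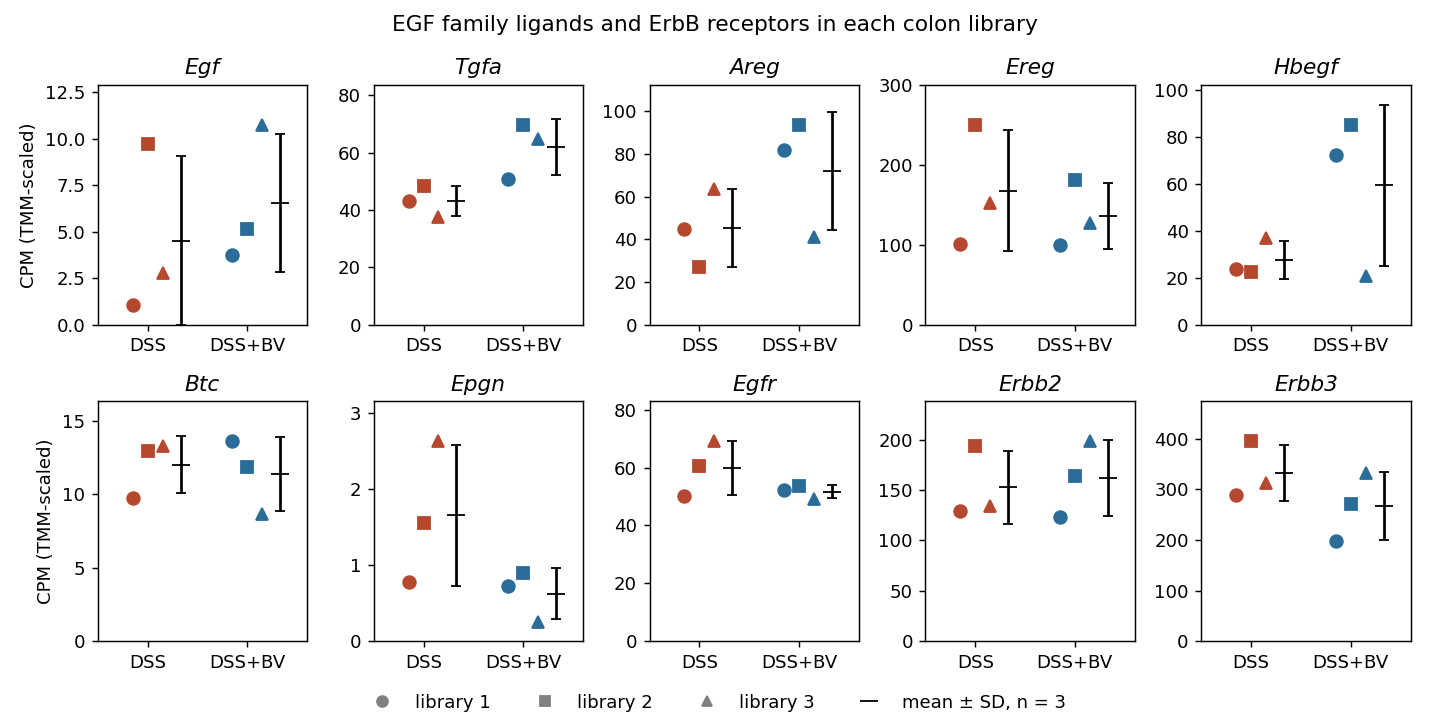
Normalised expression (CPM, linear axes from 0) of the 10 members in each of the 6 colon libraries. Points are libraries, with the shape giving the library number, and bars give the mean ± SD (n = 3). The DSS+BV points lie above all DSS points for Tgfa and overlap the DSS points for the other 9 members.

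Tgfa, a ligand of Egfr made by gut epithelial cells themselves, was the member with the most uniform difference. Its level was 43.1, 48.3 and 37.7 CPM across DSS mice 1 to 3, against 50.9, 69.7 and 64.9 CPM across DSS+BV mice 1 to 3. Each DSS+BV mouse was higher than each DSS mouse, with the nearest pair DSS 2 and DSS+BV 1. The means were 43.1 ± 5.29 and 61.8 ± 9.76 CPM (SD, n = 3 each), for which the log2 fold change was 0.52 (SE, the standard error, 0.169), which did not pass edgeR's quasi-likelihood test (adjusted p = 0.340). Its 95% interval ran from 0.12 to 0.93, so a doubling lay outside it. Of the 15 epithelium markers, all had values above 0, against 7078 of 14579 tested genes. Of these markers, 6 did not overlap between the groups, though 0 were called. Of all tested genes, 6.37% were higher in DSS+BV without overlap. Krt8 had a log2 fold change of 0.64 and Vil1 0.48, and the part of epithelial transcripts in the Tgfa value was not tested.

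Areg (amphiregulin), a ligand of Egfr made by epithelium and by immune cells during repair, split the DSS+BV mice. Its level was 44.8, 27.2 and 63.5 CPM across DSS mice 1 to 3, against 81.7, 93.6 and 41.0 CPM across DSS+BV mice 1 to 3. DSS+BV 1 and 2 were above every DSS mouse, and DSS+BV 3 lay within the DSS range. The means, 45.2 ± 18.2 and 72.1 ± 27.6 CPM (SD, n = 3 each), gave a log2 difference of 0.67 (SE 0.399, edgeR adjusted p = 0.531).

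Hbegf (heparin-binding EGF-like growth factor), which is released from epithelial cells and macrophages and promotes cell migration over wounds, had the same split in a sharper form. Its level was 23.6, 22.4 and 36.8 CPM across DSS mice 1 to 3, against 72.3, 85.0 and 20.5 CPM across DSS+BV mice 1 to 3. Its highest level stood in DSS+BV 2 and its lowest in DSS+BV 3, so mice of one treatment held both ends of its range. The means were 27.6 ± 7.98 and 59.3 ± 34.1 CPM (SD, n = 3 each), and the log2 fold change of 1.10 (SE 0.508, 95% interval -0.11 to 2.31) did not pass the test (edgeR adjusted p = 0.434). Without DSS+BV 3 the log2 fold change was 1.51 for Hbegf.

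Ereg (epiregulin), a ligand of Egfr and Erbb4 made by stroma, macrophages and regenerating epithelium, was the ligand with the most reads. Its level was 101, 250.4 and 153 CPM across DSS mice 1 to 3, against 100.5, 181 and 127 CPM across DSS+BV mice 1 to 3. DSS 2 stood highest, and DSS 1 and DSS+BV 1 were almost equal at the low end. The groups overlapped, at 168 ± 76.0 and 136 ± 40.9 CPM (SD, n = 3 each), for which the log2 fold change was -0.30 (SE 0.367, edgeR adjusted p = 0.758). Without DSS 2 the value was 0.11. Fibroblast markers summed to 3825 to 4156 CPM in DSS and 1371 to 2017 CPM in DSS+BV, macrophage and monocyte markers to 851 to 2001 and 555 to 1401 CPM, and their part in the Ereg value was not tested. Areg and Ereg are next to each other on chromosome 5, yet the ratio of their counts ran from 0.108 in DSS 2 to 0.814 in DSS+BV 1.

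Btc (betacellulin), a ligand of Egfr and Erbb4, was among the most even ligands. Its level was 9.76, 12.9 and 13.3 CPM across DSS mice 1 to 3, against 13.6, 11.8 and 8.66 CPM across DSS+BV mice 1 to 3. The ranges were almost the same, and the log2 fold change was -0.08, with a 95% interval from -0.66 to 0.51 (edgeR adjusted p = 0.917). A change of 2-fold in either direction lay outside this interval.

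Egf, the founding ligand, known mainly from salivary gland and kidney, was scarce, with 18 to 170 counts a library. Its level was 1.08, 9.70 and 2.80 CPM across DSS mice 1 to 3, against 3.76, 5.16 and 10.7 CPM across DSS+BV mice 1 to 3. DSS 2 and DSS+BV 3 were about level and stood above the other 4 libraries, and the highest level was 9.97 times the lowest. The log2 fold change of 0.54 had a standard error of 0.794 and a 95% interval from -1.36 to 2.43 (edgeR adjusted p = 0.803). It became 1.76 without DSS 2 and -0.01 without DSS+BV 3.

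Epgn (epigen), a low-affinity ligand of Egfr known from epithelia, had the fewest counts of the members in each library. Its counts were 13, 25 and 45 across DSS mice 1 to 3, against 11, 14 and 4 across DSS+BV mice 1 to 3, or 0.778, 1.55 and 2.62 CPM and 0.726, 0.892 and 0.253 CPM. DSS 2 and 3 were above every DSS+BV mouse, while DSS 1 lay between DSS+BV 1 and 2. The log2 fold change was -1.40 (SE 0.627, 95% interval -2.89 to 0.10, edgeR adjusted p = 0.425), and -0.89 without DSS 3. The lowest library held 4 counts, and the part of counting error in this difference was not tested.

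**Figure D2:**
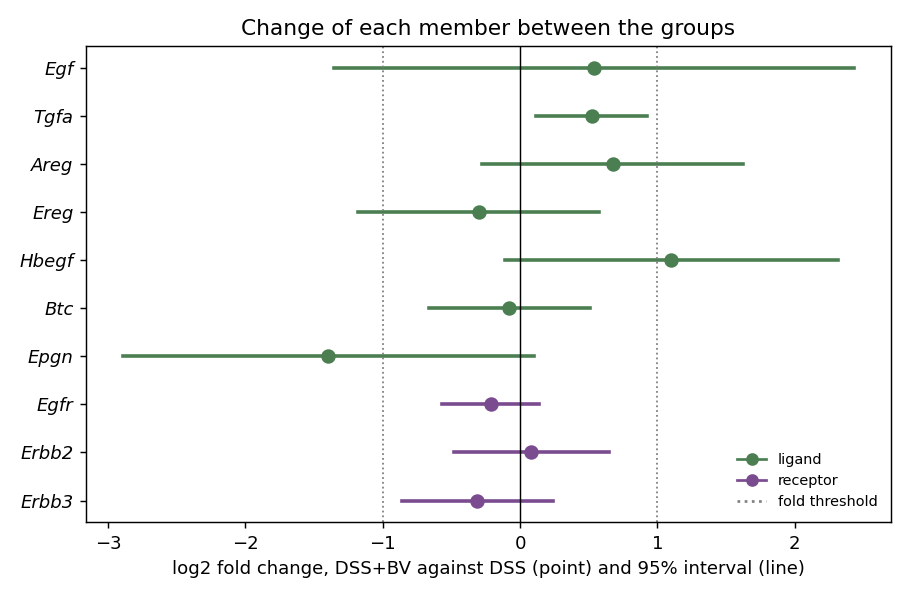
Log2 fold change of each member, DSS+BV against DSS, with its 95% interval from the quasi-likelihood fit (3 libraries per group); the solid line is 0 and dotted lines mark the threshold of 1 on the fold change. The interval of Tgfa, from 0.12 to 0.93, leaves out 0, those of the other 9 members hold 0, and the receptors have narrower intervals than Egf, Hbegf and Epgn. The intervals are for single genes and are not adjusted for the number of genes tested. In the same edgeR fit 12.5% of all tested genes had an unadjusted p under 0.05.

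The receptors differed less between mice than most ligands. Egfr, the receptor of most of these ligands, stood at 50.3, 60.6 and 69.0 CPM across DSS mice 1 to 3, against 52.1, 53.6 and 49.3 CPM across DSS+BV mice 1 to 3. The DSS+BV mice lay close together, around the low end of the DSS range. The means of 60.0 ± 9.37 and 51.6 ± 2.20 CPM (SD, n = 3 each) gave a log2 difference of -0.22 (SE 0.149, 95% interval -0.57 to 0.14, edgeR adjusted p = 0.583). Among the 10 members Egfr had the smallest SD of log2 CPM over the 6 libraries, 0.187, and Egf the largest, 1.18.

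Erbb2, the partner receptor without a ligand, stood at 129.5, 194 and 134 CPM across DSS mice 1 to 3, against 123, 164 and 198 CPM across DSS+BV mice 1 to 3. The groups covered nearly the same range, and the log2 fold change of 0.08 had a 95% interval from -0.48 to 0.65 (edgeR adjusted p = 0.907). Erbb3, the neuregulin receptor, stood at 288, 394 and 313 CPM across DSS mice 1 to 3, against 198, 271 and 333 CPM across DSS+BV mice 1 to 3. DSS+BV 1 and 2 were below every DSS mouse and DSS+BV 3 was not. The log2 fold change was -0.31 (SE 0.230, 95% interval -0.86 to 0.24, edgeR adjusted p = 0.606).

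Erbb2 and Erbb3 varied alike from mouse to mouse, and their ratio within a library, which no scaling between libraries can move, was steadier than either level. Divided by the count of Erbb3, that of Erbb2 gave 0.449, 0.491 and 0.429 across DSS mice 1 to 3, against 0.621, 0.605 and 0.595 across DSS+BV mice 1 to 3. All DSS+BV mice had a higher ratio than all DSS mice, a difference of 0.41 on the log2 scale (means -1.13 ± 0.100 and -0.72 ± 0.031, SD, n = 3 each), and between 0.37 and 0.47 with any 1 library left out. The two-sided exact permutation p was 0.1, the smallest that 3 against 3 allows (0.562 after Benjamini-Hochberg adjustment over the 45 pairs of members). This ratio was picked out after its values were seen. Of the 45 pairs, 8 (17.8%) did not overlap between the groups, and of all other tested genes 18.3% had a ratio to Erbb3 that did not overlap, 16.4% in the higher direction. The other pairs were Tgfa with Egfr and with Erbb3, and Epgn with Tgfa, Areg, Hbegf, Btc and Erbb2. The ratio of Tgfa to Erbb3 was 0.149, 0.122 and 0.120 across DSS mice 1 to 3, against 0.257, 0.257 and 0.195 across DSS+BV mice 1 to 3.

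**Figure D3:**
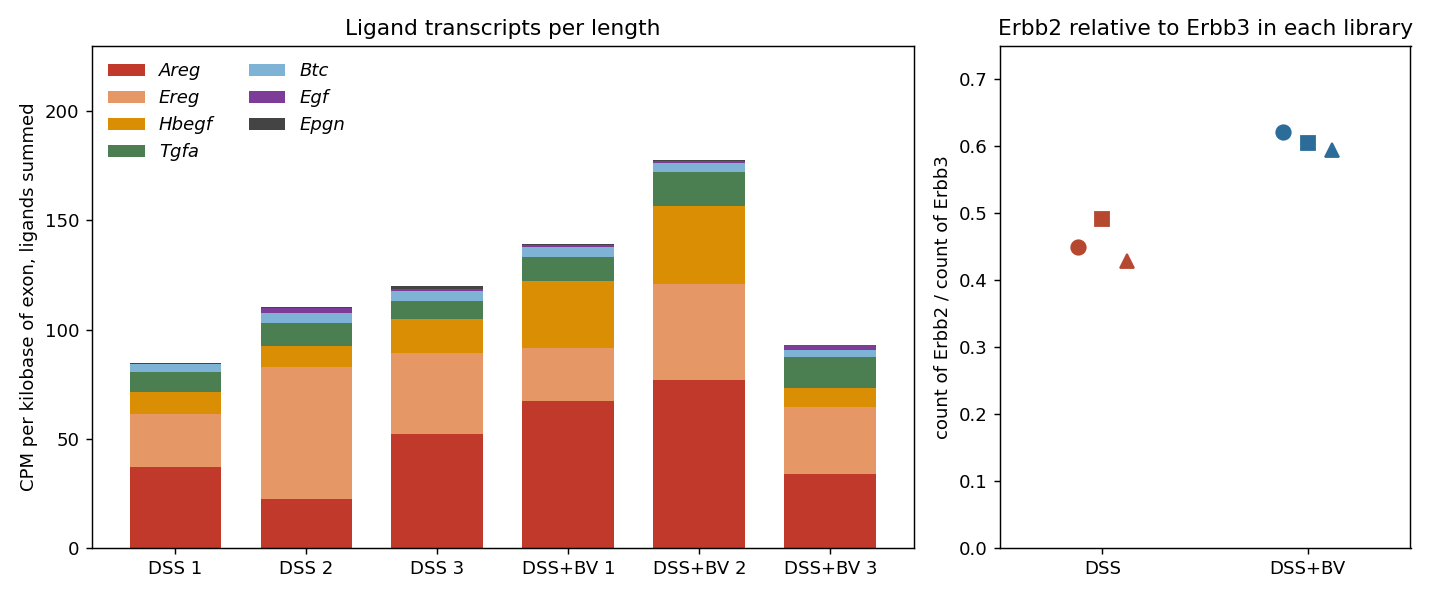
Left, CPM per kilobase of exon of the 7 ligands, stacked for each library; right, the count of Erbb2 divided by that of Erbb3 in each library, with the point shape giving the library number (circle 1, square 2, triangle 3). Areg and Ereg fill most of each bar, the bars of DSS+BV 1 and 2 are the tallest, and the ratio is 0.429 to 0.491 in DSS and 0.595 to 0.621 in DSS+BV.

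Levels of different genes were compared per kilobase of exon (GENCODE M21, GRCm38). In the DSS group the order of the mean levels was Erbb3 (55.2 ± 9.22 CPM per kilobase, SD, n = 3), Ereg (40.7 ± 18.4), Areg (37.2 ± 14.97), Erbb2 (30.4 ± 7.15), Hbegf (11.6 ± 3.36), Tgfa (9.51 ± 1.17), Egfr (5.47 ± 0.855), Btc (4.17 ± 0.674), Egf (0.943 ± 0.952) and Epgn (0.914 ± 0.512). Neighbours parted without overlap only between Erbb2 and Hbegf, between Tgfa and Egfr and between Btc and Egf. The ranges of all other neighbours in that order overlapped, although Erbb3 was above Ereg and Egfr above Btc in each of the 3 libraries. In the DSS+BV group Areg stood first, at 59.3 ± 22.7 CPM per kilobase, followed by Erbb3 (44.4 ± 11.2), Ereg (from 24.3 to 43.8 in single mice), Erbb2 (32.2, from 24.5 to 39.5), Hbegf (24.96 ± 14.4), Tgfa (13.7 ± 2.16), Egfr (4.71 ± 0.201), Btc (3.95 ± 0.869), Egf (1.37 ± 0.771) and Epgn (0.345 ± 0.183). There the neighbours parted between Tgfa and Egfr, Btc and Egf, and Egf and Epgn. Egfr transcripts thus stood below those of both other receptors in each of the 6 libraries, at 4.52% to 7.65% of the 3 receptors summed per length.

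By the same measure Areg and Ereg together made most of the ligand transcripts in each mouse. Areg held 43.5%, 20.2% and 43.6% across DSS mice 1 to 3, against 48.3%, 43.4% and 36.3% across DSS+BV mice 1 to 3. Ereg held 28.8%, 54.9% and 30.9% in the DSS and 17.5%, 24.6% and 33.2% in the DSS+BV libraries, so DSS 2 was the 1 mouse in which Ereg exceeded Areg. The summed ligand level was 84.8, 111 and 119.8 CPM per kilobase across DSS mice 1 to 3, against 139, 178 and 93.0 across DSS+BV mice 1 to 3, with DSS+BV 3 between DSS 1 and DSS 2.

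Among the other ligands and receptors of the family, Nrg1 (neuregulin 1), a ligand of Erbb3 and Erbb4 made largely by stroma, stood at 86.5, 91.5 and 128 CPM across DSS mice 1 to 3, against 88.4, 66.6 and 69.9 CPM across DSS+BV mice 1 to 3. Its log2 fold change was -0.44 (SE 0.200, edgeR adjusted p = 0.425). Nrg2 and Nrg4 had log2 fold changes of -0.13 and 0.19. Erbb4 had 0 to 2 counts a library and Nrg3 1 to 23, and both were removed by the filter.

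Of 79 other genes of the pathway in 5 roles, 77 were tested and 0 were called by edgeR in either direction. At an unadjusted p under 0.05 in the edgeR test, 3 were lower and 4 higher, against 12.5% of all tested genes in either direction. DESeq2 called 1, Fosl1, against 2.01% of the genes to which it gave an adjusted p. Among 10 genes of ligand release, 9 had values below 0 (median -0.11), against 7501 of 14579 tested genes. Adam9, a membrane protease, averaged 184 ± 11.1 CPM in DSS mice against 132 ± 4.27 CPM in DSS+BV mice (SD, n = 3 each). Its log2 fold change was -0.47 (edgeR adjusted p = 0.274). The groups did not overlap for 3 of the 10 genes, Adam9, Adam10 and Adam12, all lower in DSS+BV. Of all tested genes, 11.3% were lower in DSS+BV without overlap. Adam12 had -1.36, Rhbdf1, an inactive rhomboid that helps a sheddase to the cell surface, 0.34, and Adam10, the main sheddase of Btc and Egf, -0.11.

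In the relay from receptor to kinase cascades, 28 genes were tested and their median log2 fold change was 0.02. Akt2, a kinase downstream of PI3K, had a log2 fold change of -0.50 (adjusted p = 0.329 from the edgeR fit), Stat3 one of -0.36 and Map2k1, the kinase that activates ERK, one of 0.25. The 21 inhibitors had a median of 0.05, led by Spred2, a brake on RAS-RAF signalling, with 0.38, and followed by Spred1 with 0.17, Lrig1, which promotes receptor breakdown, with -0.22, and Errfi1, which binds and blocks the receptor kinase, with 0.61. Spred2 and Spred1 were the 2 of 21 inhibitors whose groups did not overlap, both higher in DSS+BV, against 6.37% of all tested genes in that direction.

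The 15 genes induced by ERK signalling had the highest median of the 5 roles, 0.36, with 10 above 0, against 7078 of 14579 tested genes. Fosl1 (FRA-1), an AP-1 subunit, stood at 1.44, 3.54 and 2.27 CPM across DSS mice 1 to 3, against 6.66, 9.81 and 5.75 CPM across DSS+BV mice 1 to 3. Fosl1 was the 1 of 15 whose groups did not overlap, against 6.37% of all tested genes in the higher direction. The log2 fold change was 1.61 (SE 0.405, adjusted p = 0.280 in edgeR and 0.0130 in DESeq2). Etv5, an ETS factor, had 1.34, Phlda1 0.38 and Ier3 -0.44, and none of the 3 passed the edgeR test (adjusted p between 0.370 and 0.468).

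**Figure D4:**
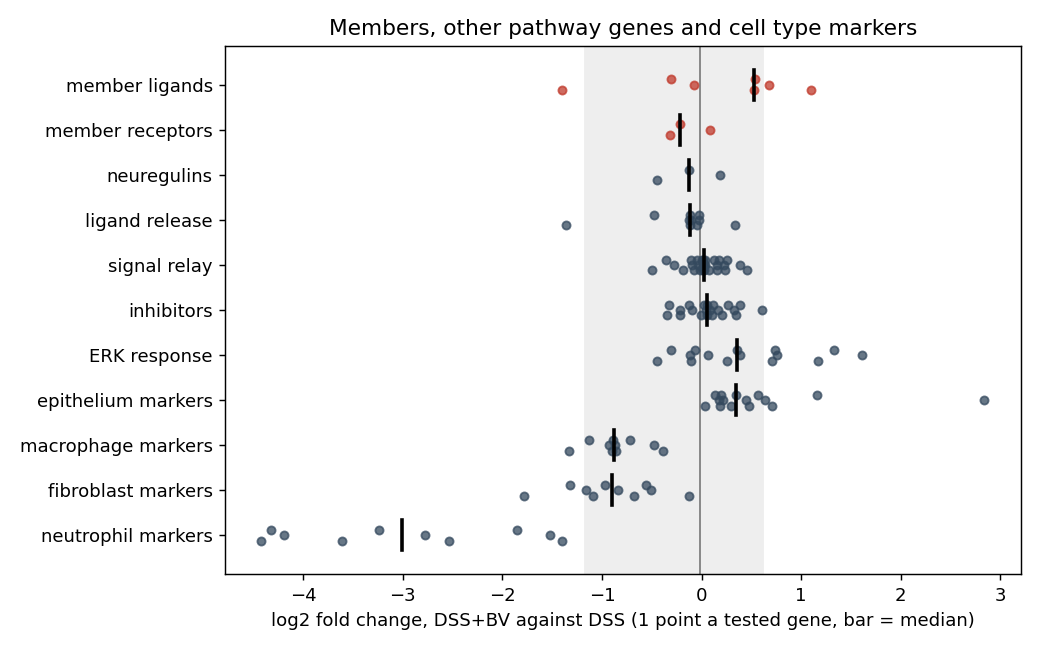
Log2 fold change (DSS+BV against DSS) of each tested gene of the members, the other pathway roles and 4 of the cell type lists; black bars are medians, the grey line is the median of all tested genes and the grey band holds their 5th to 95th percentiles, from -1.17 to 0.62. The neuregulins, ligand release, signal relay and inhibitor genes have medians from -0.13 to 0.05. The medians are 0.52 for the member ligands, -0.22 for the member receptors, 0.36 for the ERK response genes and 0.35 for the epithelium markers. Neutrophil markers lie furthest below 0.

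Some ERK-induced genes and smooth muscle markers shared with Areg and Hbegf a lower level in DSS+BV 3 than in DSS+BV 1 and 2. Among the members, Areg, Hbegf and Epgn had values in both DSS+BV 1 and DSS+BV 2 at least 1.5 times that of DSS+BV 3, a pattern held by 5.82% of all tested genes. It was held by 4 of 15 ERK response genes (Fos, Egr1, Egr2 and Egr3) and by 3 of 21 inhibitors (Errfi1, Spry4 and Dusp6), 1 of 10 ligand release genes (Rhbdl2) and 0 of 28 relay genes. This pattern and these genes were chosen after their values were seen. Other ERK response genes went the other way, with Jun at 68.7, 96.7 and 111 CPM and Etv5 at 19.3, 30.5 and 57.0 CPM across DSS+BV mice 1 to 3. Fos stood at 55.6, 96.2 and 171 CPM across DSS mice 1 to 3, against 247, 212 and 84.9 CPM across DSS+BV mice 1 to 3. Egr1 stood at 30.8, 88.8 and 91.2 CPM across DSS mice 1 to 3, against 162, 153 and 30.3 CPM across DSS+BV mice 1 to 3. In Areg, Hbegf, Fos and Egr1 alike, DSS+BV 1 and 2 stood above all DSS mice and DSS+BV 3 did not. Among the cell type lists, the pattern of at least 1.5 times was held by 5 of 10 smooth muscle markers (Cnn1, Des, Actg2, Tagln and Synm). This was a larger share than of the ERK response genes. The pattern compares DSS+BV libraries only. Of these 5 markers, Actg2 alone also had both DSS+BV 1 and 2 above all DSS mice, and of the 4 ERK response genes Fos and Egr1 did. The smooth muscle list summed to 3705, 4052 and 4643 CPM across DSS mice 1 to 3, against 4449, 4003 and 2854 CPM across DSS+BV mice 1 to 3, so its sum was lowest in DSS+BV 3. The pattern was also held by 1 of 15 epithelium markers (Slc26a3), 2 of 2 tested squamous markers (Sfn and Krt13), 2 of 5 mast cell, 2 of 10 neutrophil and 1 of 10 endothelial markers. It was held by 0 of the macrophage and monocyte, fibroblast, T and innate lymphoid, and B and plasma cell markers. The part of tissue composition in this pattern was not tested.

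**Figure D5:**
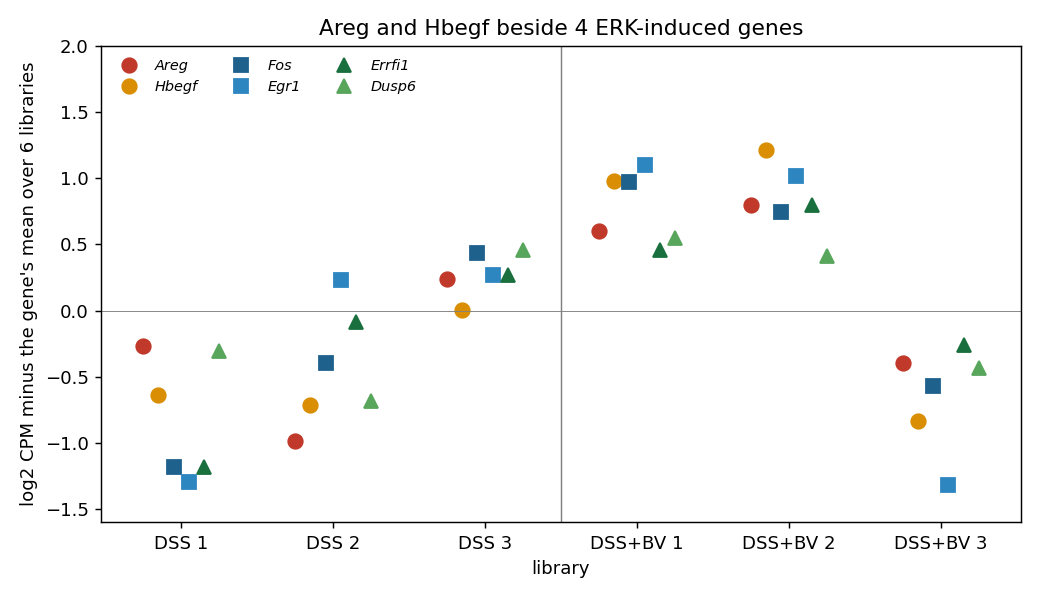
Log2 CPM of Areg and Hbegf (circles), the immediate early genes Fos and Egr1 (squares) and the feedback inhibitors Errfi1 and Dusp6 (triangles) in each library, minus the gene's mean over the 6 libraries; the vertical line parts the groups. All 6 genes lie above their means in DSS+BV 1 and 2 and below them in DSS 1 and DSS+BV 3. Fos, Egr1, Errfi1 and Dusp6 were chosen for display after their values were seen, and other ERK response genes, such as Jun and Etv5, were highest among DSS+BV mice in DSS+BV 3.

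The genes nearest in pattern were sought for the ligand and the receptor with the largest spread, by the root mean square difference of centred log2 CPM over the 6 libraries. For Egf they were Chrm1 (0.146), which encodes a muscarinic acetylcholine receptor, Dpep1 (0.181), a dipeptidase, and Apol10a (0.181). Dpep1 stood at 31.4, 322 and 91.5 CPM across DSS mice 1 to 3, against 90.4, 166 and 347 CPM across DSS+BV mice 1 to 3. For Erbb3 they were St3gal1 (0.067), a sialyltransferase, Gbgt1 (0.085) and Thra (0.090), a thyroid hormone receptor. Between members, Btc with Egfr (0.179) and Erbb2 with Erbb3 (0.215) were nearest.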

How the data were processed

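The authors deposited RSEM expected counts per gene, not scaled between libraries. The submitters' processing notes name HISAT2 2.1.0, Bowtie2 2.2.5, RSEM 1.2.8 and GRCm38.p6. Expected counts were rounded, genes filtered with filterByExpr (minimum count 10, minimum total 15), libraries scaled with TMM factors, and a quasi-likelihood model fitted in edgeR 4.0.16 (R 4.3.3), with Benjamini-Hochberg adjustment over all 14579 tested genes. The 95% intervals used 6.68 degrees of freedom and were not adjusted over genes, and log2 CPM used a prior count of 2. The study used DESeq2 with the same thresholds; here DESeq2 1.42.0 was an alternative. The script was tested on simulated data. Members and gene lists were chosen with earlier results of these data known. Named pathway genes are those called and otherwise up to 4 per role with the smallest p. One gene that this rule names is not reported here. Cell type markers named singly, and patterns said to be picked after their values were seen, fall outside this rule. Each library was 1 mouse, and replicate pairs differed by more than counting noise (chi-square over its degrees of freedom, 42.7 to 118). Exon lengths may differ from the authors' transcript set.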

Additional observations from a re-analysis of the deposited data

How the results depend on the processing

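The tests of the 10 members and of the other pathway genes were repeated with DESeq2, RLE and upper-quartile factors, 2 other filters, a robust fit, the replicate number as a block, the adjusted p alone and each library left out. No member was called under any of them. The pathway count was 0 except with DESeq2, which called 1, and the count over all genes was 13, 11 with the filter on CPM, 325 with DESeq2, 0 with the replicate block, and 0 to 7 with 1 library left out. Whether the replicate numbers pair the mice is not known. Deviations of same-numbered libraries from their group means correlated at 0.267, 0.255 and -0.296 across genes. DSS 1 correlated best with its own number, and DSS 2 and DSS 3 each with another. Deviations from the mean of 3 libraries are bound together within a group, so these correlations cannot decide the question. Of 129 repeats of the members' log2 fold changes, 7 changed sign, all with a library left out. They were Egf without DSS+BV 3 (-0.0144), Ereg without DSS 2 (0.11), Btc without DSS 3 (0.0026) and without DSS+BV 3 (0.089), and Erbb2 without DSS 1 (-0.019), DSS 3 (-0.00084) and DSS+BV 3 (-0.086). The ranges with a library left out were -0.01 to 1.76 for Egf, -0.56 to 0.11 for Ereg, -0.21 to 0.09 for Btc and -0.09 to 0.31 for Erbb2. Tgfa ran from 0.43 to 0.66, Areg from 0.42 to 1.002, Hbegf from 0.75 to 1.51, Epgn from -1.74 to -0.89, Egfr from -0.33 to -0.10 and Erbb3 from -0.50 without DSS+BV 3 to -0.13. Epgn was removed by the filter on CPM of at least 1 in 3 libraries. The leaving-out of libraries for the Erbb2 to Erbb3 ratio was added after the data were seen. With 3 mice per group, exact tests of 1 value cannot go below 0.1.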
